A study of Oryza sativa with 24 samples.

Results

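OsLEC1, HAP3K, OsLFL1 and OsVP1 are 4 rice transcriptional regulators of embryo and seed development, taken by their gene identifiers from a table of 38866 genes, and all 4 passed the filter on low counts that left 29710 genes for testing. OsLEC1 (Os02g0725700, named OsHAP3E in the deposited table) and HAP3K (Os02g0725900) encode HAP3, or NF-YB, subunits of the CCAAT-binding nuclear factor Y. OsLFL1 (Os01g0713600) and OsVP1 (Os01g0911700, listed as Vp1*) encode transcription factors with a B3 DNA-binding domain. RNA was measured in 24 libraries from mature-embryo scutella of Oryza sativa Nipponbare, in 8 groups of 3. Wild-type (NIP) material and the 35Spro:OsMIR393b line (OEMIR393b), which carries the miR393b precursor behind the constitutive cauliflower mosaic virus 35S promoter in the Nipponbare background, were kept for 2 days on hormone-free N6 medium or for 2, 5 or 7 days on callus-inducing medium (CIM), which is N6 basal medium with the synthetic auxin 2,4-dichlorophenoxyacetic acid. miR393 cleaves transcripts of the auxin receptors OsTIR1 and OsAFB2, so these receptor transcripts are lowered in the line. The study reports that seeds of the line formed no scutellum-derived callus on CIM, whereas all wild-type seeds tested did. In the line the dividing scutellum cells also formed no embryo-like structure. Genotype differences at 5 d and 7 d therefore also hold this difference in tissue, and its part was not tested. N6 was sampled at 2 d only. Against N6, the CIM groups at 5 d and 7 d therefore differ in medium and in days of culture, which cannot be told apart. Whether the line comes from a single transformant is not stated in the sources used here, and each library pooled scutella of several seeds, so that more cells expressing a gene and more RNA in each cell cannot be told apart.

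In Arabidopsis, LEC1, LEC2, FUS3 and ABI3 form a network that sets embryo identity and then drives seed maturation, with storage reserves, oil bodies and desiccation proteins as its outputs. LEC1 is an NF-YB subunit that pairs with an NF-YC subunit, and the pair then recruits an NF-YA subunit or another transcription factor to DNA. LEC2, FUS3 and ABI3 bind the RY element of seed gene promoters through their B3 domain, and the network is closed after germination by VAL-type B3 repressors, Polycomb complexes and the CHD3 remodeler PICKLE. In rice, OsLEC1 is the LEC1-type gene, HAP3K (also known as OsNF-YB1) is best known from the endosperm and its aleurone, OsVP1 is the ABI3 counterpart that acts in the abscisic acid response of the embryo, and OsLFL1 is a LEC2- and FUS3-like gene known as a repressor of the flowering gene Ehd1.

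On IRGSP-1.0, the build the submitters aligned to, OsLEC1 lies on the minus strand of chromosome 2 (chr2:30164300-30165377) and HAP3K on the same strand (chr2:30191485-30192488). The 2 genes are separated by 26.1 kb in which the deposited table holds 0 annotated genes. OsLFL1 is on the plus strand of chromosome 1 (chr1:29637792-29642862) and OsVP1 on its minus strand (chr1:39723171-39726984), where the table gives 2 transcripts for OsVP1 and 1 for each of the other members.

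Total counts ranged from 50341636 (wild type, CIM 2 d, replicate 2) to 70796624 per library, with 61554276 as the lowest total outside that library. OsTIR1 averaged 25.99 ± 1.63 CPM (library-scaled counts, with TMM normalization factors) in the line against 110.5 ± 6.22 CPM in the wild type on N6 (SD, n = 3 each), and OsAFB2 averaged 82.25 ± 7.24 against 141.6 ± 10.3 CPM, so both targets stood where the genotype labels place them. The study calls its RNA-seq replicates biological, but neither it nor the labels say whether they were separate cultures, so p-values measure the spread between these libraries, which may in part be technical. In 24 of the 24 libraries more genes had 4 counts than 3 or 5, so 1 sequenced fragment appears to be worth about 4 counts in many genes. A library with 0 counts is therefore read against a floor of 12 counts, about 3 fragments. Intervals and floors on counts cover counting error only.

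OsLEC1 was absent from hormone-free scutella at this depth and appeared on auxin medium between day 2 and day 5. Wild-type scutella had 0 CPM in all 3 N6 libraries. At 2 d on CIM it had 0, 0 and 0.177 CPM in replicates 1 to 3, the last being 12 counts and so at the floor. It stood at 10.7, 12.1 and 17.0 CPM at 5 d and at 14.2, 13.8 and 17.0 CPM at 7 d. The 5 d and 7 d libraries overlapped each other and lay far above every 2 d and N6 library. Against the N6 floor, OsLEC1 rose at least 72-fold at 5 d (adjusted p = 7.4e-05) and at least 82-fold at 7 d (adjusted p = 5.8e-05, edgeR quasi-likelihood test, Benjamini-Hochberg over all genes tested). From 2 d to 5 d it rose 199.6-fold, with a 95% exact counting interval of 68.06 to 970.2, since the 2 d group held about 3 fragments (adjusted p = 4.4e-04). That ratio rests on CIM 2 d replicate 3, without which the 2 d group is at 0 and the call remains (adjusted p = 8.7e-04). The change from 5 d to 7 d was 0.18 ± 0.87 (log2 ± SE) and was not called.

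In the 35Spro:OsMIR393b line OsLEC1 was nearly silent. It had 0 CPM in all 3 N6 libraries and in all 3 libraries at 2 d on CIM. At 5 d it reached 2.85, 0.479 and 0.071 CPM, and at 7 d it was back at 0.055, 0 and 0.074 CPM, which is about 2 fragments in the whole group. The 5 d rise over N6 was called (adjusted p = 0.0051), with a group mean at least 5-fold over the floor, but that mean of 1.13 CPM was set by replicate 1 and came to 0.275 CPM without it, close to the floor. The call itself held without replicate 1 (adjusted p = 0.013). The fall from 5 d to 7 d (log2 -4.71 ± 1.29, adjusted p = 0.024) was not called without CIM 5 d replicate 1 (log2 -2.67, adjusted p = 0.18), nor without any of the 3 CIM 7 d libraries, where the values were -4.94, -4.11 and -5.33 (adjusted p = 0.079, 0.06 and 0.057). The 5 d libraries of the line all lay below those of the wild type, by -3.53 ± 0.97 on the log2 scale (adjusted p = 0.008 in edgeR, 0.06 and not called in DESeq2). That difference was -5.57 without CIM 5 d replicate 1 of the line. At 7 d the wild type exceeded the line 315-fold with a 95% counting interval of 86.97 to 2606 (adjusted p = 9.4e-05). Since both N6 groups were at 0, the difference between the genotypes in the change from N6 could not be estimated for this gene.

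**Figure D1:**
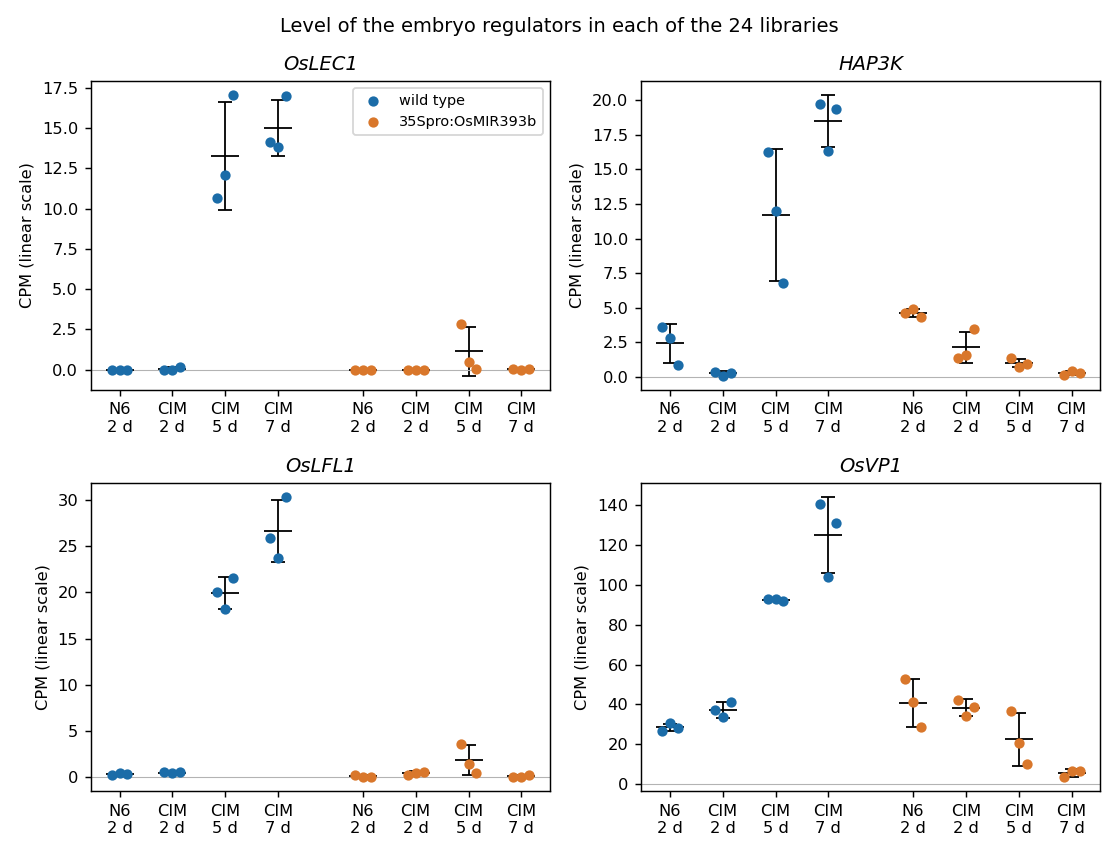
CPM of OsLEC1, HAP3K, OsLFL1 and OsVP1 on linear axes, 1 panel per gene, for wild type (blue) and the 35Spro:OsMIR393b line (orange) on N6 for 2 d and on CIM for 2, 5 and 7 d. Dots are libraries and black bars are mean ± SD of 3 libraries. In every panel the wild-type 5 d and 7 d libraries stand above all libraries of the line at those times, with OsVP1 at 104 to 141 CPM against 3.42 to 6.86 CPM at 7 d.

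HAP3K, the neighbour of OsLEC1, differed in being present without auxin. Wild-type libraries held 3.59, 2.77 and 0.866 CPM on N6 and only 0.361, 0.082 and 0.28 CPM at 2 d on CIM, so that the groups did not overlap. It then reached 16.3, 11.99 and 6.79 CPM at 5 d and 19.8, 16.4 and 19.4 CPM at 7 d. The lower level at 2 d on CIM and the later higher levels passed the test against N6, which was itself sampled at 2 d. HAP3K was lower by 3.27 on the log2 scale at 2 d (SE 0.55, adjusted p = 4.2e-04). It was higher by 2.28 ± 0.48 at 5 d (adjusted p = 6.6e-04) and by 2.94 ± 0.49 at 7 d (adjusted p = 6.0e-05), all against N6. From 2 d to 5 d the rise was 46.9-fold (log2 5.55 ± 0.58, adjusted p = 1.3e-06). The 7 d libraries all lay above the 5 d libraries, but the step of 0.66 ± 0.46 was not called.

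In the line HAP3K went the other way. It stood at 4.64, 4.92 and 4.32 CPM on N6, above all 3 wild-type N6 libraries, although this difference of 0.94 ± 0.47 was not called (adjusted p = 0.24). On CIM it stood at 1.36, 1.60 and 3.45 CPM at 2 d, at 1.35, 0.726 and 0.922 CPM at 5 d and at 0.129, 0.386 and 0.258 CPM at 7 d. These groups followed each other downward without overlap. Against N6, HAP3K fell by 2.21 on the log2 scale at 5 d (SE 0.49, adjusted p = 0.0031) and by 4.15 at 7 d (SE 0.56, adjusted p = 9.0e-06), while its value at 2 d (-1.11 ± 0.47, adjusted p = 0.26) was not called. The step from 5 d to 7 d (-1.94 ± 0.55, adjusted p = 0.02) lost its call without CIM 5 d replicate 1 (-1.66, adjusted p = 0.11), without CIM 7 d replicate 1 (-1.63, adjusted p = 0.1) and without CIM 7 d replicate 3 (-1.93, adjusted p = 0.058). The genotypes crossed between 2 d and 5 d. HAP3K was higher in the line than in the wild type at 2 d on CIM (log2 3.10 ± 0.55, adjusted p = 0.001) and lower at 5 d (-3.55 ± 0.52, adjusted p = 1.4e-05) and at 7 d (-6.15 ± 0.60, adjusted p = 5.4e-08, or 70.8-fold). The change from N6 differed between wild type and line by 4.49 ± 0.69 at 5 d (adjusted p = 9.0e-05) and by 7.09 ± 0.75 at 7 d (adjusted p = 7.3e-07).

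The genes on either side of OsLEC1 and HAP3K were not called higher. On the far side of OsLEC1, Os02g0725600, annotated as a tRNA methyltransferase, averaged 23.1 ± 5.55 CPM in the wild type on N6 and 30.75 ± 1.12 CPM at 7 d (log2 0.41, adjusted p = 0.018, under the fold threshold). On the far side of HAP3K, the fasciclin-like gene OsFLA21 fell, from 1.53 ± 0.76 CPM on N6 to 0 in all 3 wild-type libraries at 7 d (adjusted p = 9.6e-05).

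OsLFL1 followed OsLEC1 in the wild type, from a low but detected base. It stood at 0.218, 0.465 and 0.356 CPM on N6, against 0.534, 0.389 and 0.487 CPM after 2 d on CIM, 2 overlapping groups that did not differ by the test (log2 0.45 ± 0.77, adjusted p = 0.74). It reached 20.0, 18.2 and 21.6 CPM at 5 d and 25.9, 23.8 and 30.4 CPM at 7 d. The rise over N6 was 57.4-fold at 5 d (log2 5.84 ± 0.81, adjusted p = 8.1e-06) and 76.9-fold at 7 d (log2 6.26 ± 0.82, adjusted p = 3.6e-06), and that from 2 d to 5 d was 42.0-fold (log2 5.39 ± 0.79, adjusted p = 3.6e-05).

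In the line OsLFL1 made a small and transient appearance. It had 0.192, 0 and 0 CPM on N6, 0.262, 0.451 and 0.579 CPM at 2 d on CIM, 3.58, 1.45 and 0.461 CPM at 5 d and 0, 0 and 0.202 CPM at 7 d. The N6 and 7 d groups each held about 3 fragments. At 5 d the gene rose 30.5-fold over N6 with a 95% counting interval of 10.12 to 150.9 (adjusted p = 8.4e-04), and from 5 d to 7 d it fell (log2 -4.76 ± 0.93, adjusted p = 0.0022). The fitted values were 9.92 without N6 replicate 1 and -9.93 without CIM 7 d replicate 3, since the lower group is then at 0. The step from 2 d to 5 d (2.09 ± 0.72, adjusted p = 0.041) was 1.15 (adjusted p = 0.24) without CIM 5 d replicate 1, and it also lost its call without CIM 5 d replicate 2 (adjusted p = 0.062), without each CIM 2 d library of the line (0.069 to 0.14) and without each wild-type library at 5 d or 7 d (0.053 to 0.055). The line lay below the wild type at 5 d (-3.44 ± 0.70, adjusted p = 4.5e-04). At 7 d the wild type exceeded the line 372.8-fold with a 95% counting interval of 127.3 to 1810 (fitted log2 for the line over wild type -8.62, adjusted p = 3.4e-07, and -13.79 without CIM 7 d replicate 3 of the line). On N6 the line was not called against the wild type (-2.41 ± 0.98, adjusted p = 0.14), nor was its value at 2 d against N6 (2.73 ± 0.97, adjusted p = 0.16), and both passed the test without N6 replicate 1 of the line (-7.52, adjusted p = 0.042, and 7.84, adjusted p = 0.048). The difference between genotypes in the change from N6 was 6.21 ± 1.60 at 7 d (adjusted p = 0.0035), and at 5 d it was 1.02 ± 1.31 and not called. The 7 d value rests on N6 replicate 1 of the line, without which that N6 group is at 0. The fitted difference was then 1.10 (adjusted p = 0.88), with the line's own 7 d value against N6 at 5.16. With that group at 0, the size of the difference cannot be estimated.

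OsVP1 was the member with the highest level on N6 in both genotypes on the FPKM scale. Its wild-type values were 26.9, 30.5 and 28.4 CPM after N6 culture, 37.0, 33.5 and 41.3 CPM after 2 d on CIM, 93.0, 92.7 and 92.0 CPM after 5 d and 141, 104 and 131 CPM after 7 d. Each group lay wholly above the one before it. The rise over N6 was 3.24-fold at 5 d (log2 1.69 ± 0.32, adjusted p = 2.4e-04) and 4.38-fold at 7 d (log2 2.13 ± 0.33, adjusted p = 2.2e-05), whereas the value at 2 d (0.38 ± 0.32, adjusted p = 0.44) and the step from 5 d to 7 d (0.43 ± 0.31, adjusted p = 0.52) were not called.

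In the line OsVP1 declined from a like level. It stood at 52.8, 41.4 and 28.7 CPM on N6, against 42.3, 34.0 and 38.7 CPM after 2 d on CIM, and in both conditions the genotypes overlapped (log2 0.52 ± 0.32 on N6 and 0.04 ± 0.31 at 2 d, neither called, with 95% intervals of -0.14 to 1.18 and -0.62 to 0.70). At 5 d the 3 libraries were spread over 36.5, 20.8 and 10.03 CPM, and at 7 d they stood at 3.42, 6.68 and 6.86 CPM. The value against N6 at 5 d missed the call (-0.87 ± 0.32, adjusted p = 0.054) and passed it without CIM 5 d replicate 1 (-1.41, adjusted p = 0.0017) or without N6 replicate 3 (-1.07, adjusted p = 0.036). The step from 2 d to 5 d (-0.77 ± 0.32, adjusted p = 0.083) likewise passed without CIM 5 d replicate 1 (-1.32, adjusted p = 0.0024). At 7 d OsVP1 fell by 2.86 on the log2 scale (SE 0.34, adjusted p = 2.3e-06). The line lay below the wild type by 2.04 ± 0.33 log2 units at 5 d (adjusted p = 3.8e-05) and 22.1-fold at 7 d (log2 -4.47 ± 0.37, adjusted p = 6.9e-09), and the change from N6 differed between genotypes by 2.56 ± 0.45 at 5 d (adjusted p = 3.1e-04) and by 4.99 ± 0.47 at 7 d (adjusted p = 3.0e-07).

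**Figure D2:**
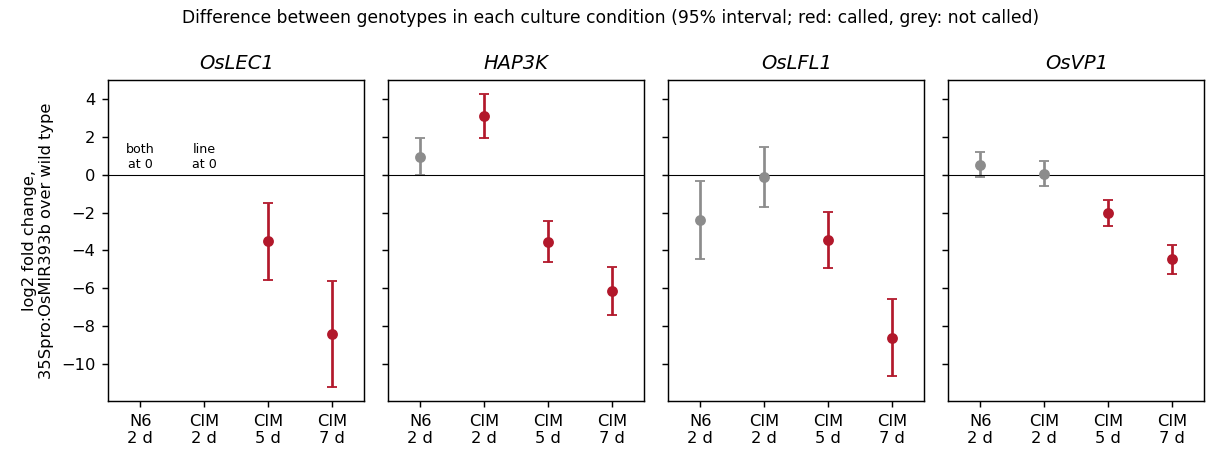
Log2 fold change of the 35Spro:OsMIR393b line over wild type within each culture condition, 1 panel per gene, with the 95% interval from the fit. Red points were called and grey points were not, and no fold is drawn for OsLEC1 where the line was at 0. All 4 genes lie below 0 at 5 d and 7 d, while HAP3K lies above 0 at 2 d.

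Set against all genes tested, the members were called as follows, where called means an adjusted p below 0.05 and a log2 fold change beyond 1 in either direction. OsLEC1, OsLFL1 and OsVP1 were named by the study for their rise in these same libraries, so their counts are not independent evidence of a direction. HAP3K was not so named, but all 4 members were chosen with earlier results of these data known. In the wild type, 1 of 4 members was called at 2 d on CIM against N6 (HAP3K, lower, beside 4.01% of all genes called lower), and 4 of 4 were called higher at 5 d (12.6% of all genes) and at 7 d (14.2%). Between 2 d and 5 d 4 of 4 were called higher (5.62%), and between 5 d and 7 d 0 of 4 were called in edgeR or DESeq2 (0.801% of all genes called in either direction) with 0 at an unadjusted p under 0.05. In the line, 0 of the 3 members that could be tested were called at 2 d against N6 in edgeR (1.59% of all genes), although HAP3K and OsLFL1 had an unadjusted p of 0.029 and 0.011 and DESeq2 called OsLFL1 higher. At 5 d OsLEC1 and OsLFL1 were called higher (6.35%) and HAP3K lower (4.21%), and at 7 d HAP3K and OsVP1 were called lower (12.5%). Between 2 d and 5 d in the line OsLEC1 and OsLFL1 were called higher (5.59%), and between 5 d and 7 d 4 of 4 were called lower (6.04%).

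Between the genotypes, 0 of 3 members were called on N6 in edgeR (2.97% of all genes), where OsLFL1 had an unadjusted p of 0.024 and was called lower in the line by DESeq2. At 2 d on CIM 1 of 4 was called higher in the line (HAP3K, 3.92%). At 5 d and at 7 d 4 of 4 were called lower in the line (10.9% and 20.3% of all genes). For the difference in the change from N6, 0 of 3 were called at 2 d in edgeR or DESeq2 (0.535%, with HAP3K at an unadjusted p of 0.0067), 2 of 3 at 5 d (HAP3K and OsVP1, beside 6.5% of all genes with the larger value in the wild type) and 3 of 3 at 7 d (16.1%). These comparisons share their N6 and CIM libraries and do not count as separate support. With library totals in place of TMM factors, all log2 differences between line and wild type at 7 d shift by -0.59, and the 7 d calls over all genes change from 5552 higher and 6035 lower to 3395 higher and 9773 lower. The 4 members were called lower under both scalings, HAP3K at -6.72, OsLFL1 at -9.21 and OsVP1 at -5.04 with library totals. The share of calls over all genes that were higher also moved by more than 10 percentage points in other comparisons, being 46.3% and 57.9% in the wild type at 5 d against N6, 49.3% and 63.0% at 7 d, 37.4% and 55.7% at 5 d against 2 d, 44.5% and 29.65% in the line at 7 d, 35.6% and 60.0% for the difference in change at 5 d, 51.1% and 74.7% at 7 d, and 59.2% and 35.6% between genotypes at 5 d, with TMM factors and with library totals in turn. No call of a member was lost or gained.

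The same contrast was tested for each member as a single value over the 18 CIM libraries, with genotype labels permuted within each day. The exact two-sided permutation test had 8000 relabellings and a smallest possible p of 0.00025 without ties, for 4 genes tested. For OsLEC1, the 2 d libraries were all at 0 except replicate 3 of the wild type. Relabellings therefore tied, and its p of 0.0025 was the smallest that this test could give. In this permutation test the mean of log2(CPM + 1) in wild-type libraries exceeded that in the line by 2.32 for OsLEC1 (permutation p = 0.0025), 1.76 for HAP3K (p = 0.01825), 2.59 for OsLFL1 (p = 0.002) and 2.14 for OsVP1 (p = 0.0035). HAP3K had the least even difference over the days, since its 3 libraries of the line at 2 d all lay above those of the wild type. OsLEC1, OsLFL1 and OsVP1 were named by the study for their rise in these libraries, which it found impaired in the line. Their p-values are therefore not independent evidence of a difference.

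Levels of different genes are comparable only per transcript length, for which the deposited FPKM values were used. At 7 d in the wild type OsVP1 was the most abundant member, at 57.5 ± 8.62 FPKM (SD, n = 3), followed by HAP3K at 25.5 ± 2.49, OsLFL1 at 21.7 ± 2.56 and OsLEC1 at 16.5 ± 1.78 FPKM. The ranges of HAP3K (22.6 to 27.3 FPKM) and OsLFL1 (19.5 to 24.5 FPKM) overlapped, while that of OsLEC1 (15.4 to 18.6 FPKM) lay below both. At 5 d these 3 genes were not separated, with means of 15.6 ± 6.32, 15.8 ± 1.54 and 14.2 ± 3.73 FPKM. On N6 OsVP1 stood at 10.9 ± 0.56 FPKM, and HAP3K at 2.74 ± 1.61 was the only other member with a mean above 1 FPKM. In the line at 7 d OsVP1 had 1.75 ± 0.66 FPKM and the other members were each below 0.4 FPKM in every library.

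**Figure D3:**
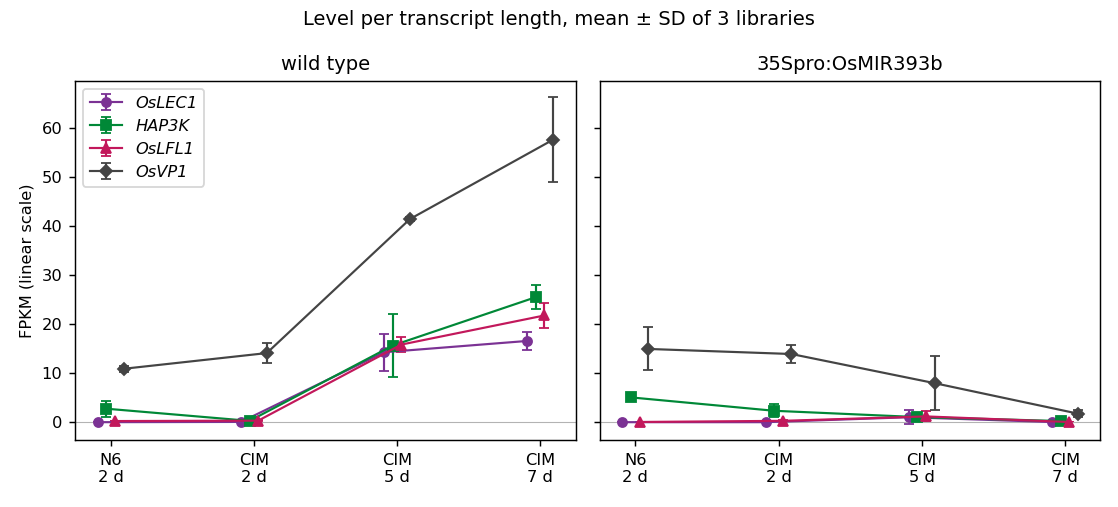
FPKM of the 4 genes on a linear axis, mean ± SD of 3 libraries, in wild type (left) and the 35Spro:OsMIR393b line (right) over the 4 culture conditions. In the wild type OsLEC1, HAP3K and OsLFL1 come from near 0 at 2 d to means of 14.2 to 15.8 FPKM at 5 d, while in the line OsVP1 declines from 14.9 to 1.75 FPKM.

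In order of their group means, OsLEC1, OsLFL1, HAP3K and OsVP1 all had the wild type at 7 d first and the wild type at 5 d second, and these neighbours overlapped only for OsLEC1. The third place differed. It was held by the line at 5 d for OsLEC1 and OsLFL1, and by the line on N6 for HAP3K and OsVP1. The lowest group was the line at 7 d for OsVP1, with no overlap with any other group, and the wild type at 2 d on CIM for HAP3K, whose libraries overlapped with those of the line at 7 d. CIM 5 d replicate 1 of the line was the highest library of its group for all 4 members, at 2.85 CPM for OsLEC1, 1.35 for HAP3K, 3.58 for OsLFL1 and 36.5 for OsVP1. Without that library the genotype difference at 5 d remained called for each member.

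Correlations over the 24 libraries, which share the culture conditions, are given as descriptions. On log2 CPM, OsLEC1 and OsLFL1 had r = 0.90, HAP3K and OsVP1 r = 0.78 and OsLFL1 and OsVP1 r = 0.76, against 0.61 or 0.62 for the other 3 pairs. Among 22335 genes with a mean of at least 1 CPM, the gene most like OsLEC1 was the F-box gene Os04g0280500 (r = 0.985), which was at 0 in both N6 groups and averaged 13.7 ± 4.93 CPM in the wild type at 7 d. It was followed by OsNTP3 (0.967), Os08g0209000 (0.962) and the lipid-transfer protein gene OsLTP1.8 (0.96), which had 3.94 ± 1.66 CPM on N6 and 329.5 ± 108.5 CPM at 7 d in the wild type. The genes most like OsLFL1 were Os07g0471200 (0.946), OsPLT9 (0.941), an AP2 gene described in the table as similar to BABY BOOM, Os10g0117800 (0.936) and Os02g0702600 (0.932), a Rop nucleotide exchanger.

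OsPLT9 rose in the wild type from 4.27 ± 0.91 CPM on N6 to 27.4 ± 3.25 CPM at 7 d (log2 2.68, adjusted p = 7.0e-06). In the line its means were 2.58 CPM on N6, 5.54 CPM at 2 d on CIM, 7.57 CPM at 5 d and 2.83 CPM at 7 d. Those most like OsVP1 were OsGL1-3 (0.978) and OsGL1-2 (0.969), both wax synthesis genes of the GLOSSY1 family, with the subtilisin-like protease gene OsSub58 (0.973) and Os02g0598200 (0.969). OsGL1-2 rose in the wild type from 29.4 ± 3.46 to 239.9 ± 46.4 CPM at 7 d and fell in the line from 44.7 ± 6.53 to 2.02 ± 1.24 CPM. For HAP3K the closest genes had lower r, from 0.943 for Os04g0569900 to 0.891 for Os11g0109500, with the glycine decarboxylase gene Os06g0611900 (0.919) and Os12g0510500 (0.893) between them.

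NF-Y works as a trimer, so the other subunits were examined next. For this list and those that follow, the shares over all genes tested at 7 d against N6 were 14.2% higher and 14.7% lower in the wild type, 2972 of 29710 genes higher and 12.5% lower in the line, and 16.1% and 15.5% with the larger and the smaller value in the wild type for the difference in change. Of the 9 NF-YB genes listed, 8 could be tested. In the wild type at 7 d against N6, 3 were called higher, the members OsLEC1 and HAP3K and besides them only OSHAP3I. The median log2 fold change was 1.56 over the 8 beside 0.02 over all genes. Count and median both include the members, so they are no result apart from them. OSHAP3I was scarce, at 0.195 ± 0.12 CPM on N6 and 1.83 ± 0.24 CPM at 7 d (log2 3.22, adjusted p = 0.0062). The other subunits HAP3A (20.2 to 17.5 CPM), HAP3B (31.2 to 39.2 CPM) and HAP3C (10.2 to 16.6 CPM) were not called. OsHAP3D, which the table describes as similar to the LEC1-like protein L1L, had 0 counts in all 24 libraries. In the line 2 NF-YB genes were called lower at 7 d, HAP3K and OsHAP3F, and 0 higher in edgeR.

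Of 10 tested NF-YA genes, whose products bind the CCAAT box, 6 were called higher in the wild type at 7 d and 0 lower, with a median of 2.42. HAP2E rose from 11.95 ± 0.60 to 37.7 ± 6.81 CPM, OSHAP2D from 4.89 ± 0.92 to 38.6 ± 0.32 CPM, OSHAP2H from 3.20 ± 0.51 to 26.0 ± 3.85 CPM and OsHAP2C from 4.45 ± 0.63 to 29.5 ± 6.13 CPM. Of 7 tested NF-YC genes, the direct partners of NF-YB, 3 were called higher, with a median of 1.52. OsHAP5A rose from 22.4 ± 1.83 to 64.4 ± 6.595 CPM (log2 1.52, adjusted p = 5.9e-09), and OsHAP5B and OsNF-YC13 rose by 1.72 and 1.88. In the line at 7 d 1 NF-YA gene was called higher and 1 lower, shares near those of all genes, and 2 NF-YC genes were called higher. Leaving out a library moved the NF-YA count called higher between 0 and 2. The change differed between genotypes, with the larger value in the wild type, for 6 of 10 NF-YA genes, beside 16.1% of all genes. It did so for 2 of 8 NF-YB and 2 of 7 NF-YC genes, counts too small to be read as a result. The 8 include OsLEC1, for which the difference could not be estimated. They also include OsHAP3G, which was at 0 in the line on N6 and at 7 d.

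OsLFL1 and OsVP1 belong to a B3 group, auxin response factors left out, of 49 genes by annotation, of which 31 could be tested and 11 were at 0 in every library. At 7 d in the wild type 18 were called higher and 3 lower (median 1.34), and in the line 5 were called higher and 1 lower (median 0.00), the former not far from the share of all genes. Besides OsLFL1 and OsVP1, Os03g0619800 rose in wild-type scutella from 1.503 ± 0.20 to 15.3 ± 1.24 CPM (log2 3.35, adjusted p = 7.9e-06) and stood at 1.97 ± 1.65 CPM in the line at 7 d. Os03g0619600, beside it in the identifier order, rose in both genotypes, by 1.47 in the wild type and by 1.63 in the line. GD1, a B3 repressor annotated as a regulator of seed germination, rose by 1.08 in the wild type (from 69.7 ± 0.90 to 147 ± 10.1 CPM). IDEF1, a B3 gene of the iron deficiency response, was under the fold threshold in the wild type (0.58, adjusted p = 2.1e-05) and in the line (-0.45, adjusted p = 4.3e-04). The difference between genotypes in its change was called (log2 1.03, adjusted p = 3.1e-06). OsLFL2 had 0 counts in all libraries.

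Genes of the network's outputs divided into those that rose with the members and those that fell. Of 45 tested LEA and oil body genes, which protect and pack the drying seed, 26 were called higher and 3 lower in the wild type at 7 d (median 2.53), and 4 higher, near the share of all genes, and 18 lower in the line (median -1.59). The oleosin gene OLE18 rose from 0.728 ± 0.37 CPM on N6 to 120.7 ± 40.6 CPM at 5 d and 139 ± 42.5 CPM at 7 d in the wild type, and stood in the line at 16.6 ± 13.5 CPM at 5 d and 0.762 ± 0.41 CPM at 7 d. The dehydrin gene OsLEA22 rose from 2.37 ± 0.44 to 117.2 ± 40.5 CPM at 7 d in the wild type (log2 5.62, adjusted p = 1.1e-06) and fell in the line from 4.29 ± 1.14 to 1.28 ± 1.14 CPM. Rab16A and OsLEA3-1, both responsive to abscisic acid, stood at 8.82 ± 3.87 and 63.3 ± 35.2 CPM on N6 in the wild type. They had already reached 111.3 ± 31.0 and 541.8 ± 164.6 CPM at 2 d on CIM. At that time OsLEC1, OsLFL1 and OsVP1 were not called against N6, and HAP3K was called lower. In the line Rab16A and OsLEA3-1 were already at 86.4 ± 32.6 and 297.8 ± 151.6 CPM on N6 and stood at 203.3 ± 40.5 and 359.3 ± 95.4 CPM at 2 d. Of this list 12 genes were called higher at 2 d in the wild type, beside 4.3% of all genes.

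Seed storage genes did not rise as a group. Of 39 tested, 31 were called lower and 2 higher in the wild type at 7 d (median -6.35), and 14 lower and 0 higher in edgeR in the line (median -2.25). The prolamin gene Prol-01 fell in the wild type from 324.9 ± 75.5 to 3.78 ± 3.61 CPM, and the glutelin genes SIP34 and GLUB5 fell as well. The globulin gene OsEnS-51 rose, from 1.35 ± 0.33 CPM on N6 to 84.3 ± 32.4 CPM at 5 d and 593.6 ± 66.2 CPM at 7 d in the wild type, and stood at 2.20 ± 1.78 CPM in the line at 7 d. Many of the members of this list are endosperm genes.

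**Figure D4:**
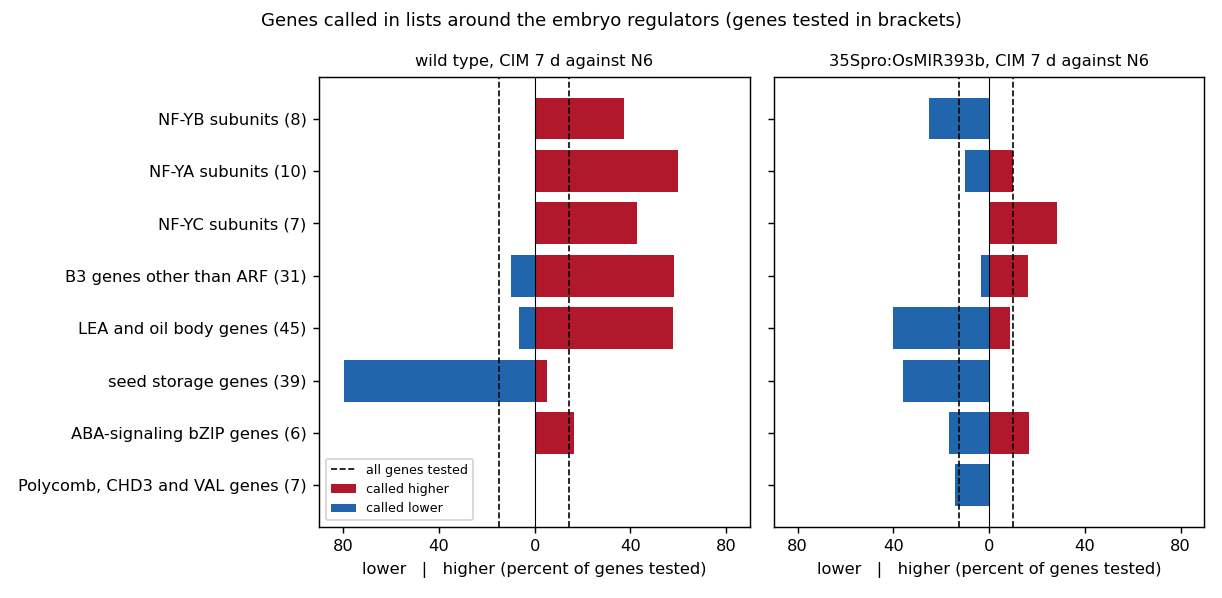
Percent of tested genes called higher (red, to the right) or lower (blue, to the left) at 7 d on CIM against N6, in wild type (left) and the 35Spro:OsMIR393b line (right), for the lists around the embryo regulators. Dashed lines give the same over all genes tested, 14.2% higher and 14.7% lower in the wild type. In the wild type the NF-Y, B3 and LEA lists, of which NF-YB holds OsLEC1 and HAP3K and B3 holds OsLFL1 and OsVP1, reach beyond the upper line and seed storage genes beyond the lower. The NF-YB genes called higher there were OsLEC1, HAP3K and OSHAP3I.

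Regulators that act with, before or after the members were examined last. Of 6 genes for bZIP factors of abscisic acid signaling, partners of ABI3-type proteins, BZIP46 was called higher in the wild type at 7 d (from 36.0 ± 8.44 to 92.8 ± 12.1 CPM, log2 1.36, adjusted p = 1.7e-05) and 0 were called lower in edgeR or DESeq2, a share near that of all genes. In the line 1 was called higher and 1 lower. Of 7 tested Polycomb, CHD3 and VAL genes 0 were called in the wild type at 7 d in edgeR (median -0.01) and 1 was called lower in the line. The repressor gene OsVAL2 stood at 30.2 ± 3.78 CPM on N6 and 34.3 ± 2.13 CPM at 7 d in the wild type and at 36.6 ± 2.54 and 42.6 ± 4.28 CPM in the line. Among the flowering genes, Ehd1 (named EF1 in the table), which OsLFL1 represses, had 0 counts in all 24 libraries, as had HD3A and the MADS15 gene DEP, so the repression could not be read here. MADS14 was at or under 0.2 CPM in every group mean. EHD2, an activator of Ehd1, fell in the wild type from 0.9499 ± 0.25 CPM on N6 to 0 in all 3 libraries at 7 d (adjusted p = 2.8e-05), while in the line it stood at 0.496 ± 0.15 and 0.745 ± 0.11 CPM.

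Markers of the tissues that a mature embryo sample can hold moved between the same groups. The summed level of 5 scutellum markers went from 6051 to 7965 CPM on N6 to between 1742 and 2306 CPM at 7 d in the wild type. In the line the sums were 15190 to 17120 CPM on N6 and 20210 to 27760 CPM at 7 d, and all 5 were above 0 in every group. The fall in the wild type was that of the amylase gene AMY1A, from 6966 ± 950.5 to 446.3 ± 368.8 CPM, while the other 4 markers were each called higher at 7 d, OLE16 from 3.99 ± 1.17 to 131.5 ± 62.3 CPM among them. In the line at 7 d against N6, AMY1A (15040 ± 894.2 and 24690 ± 4044 CPM) and OLE18 were not called. The other markers were called lower there, the amylase genes Os08g0473900 (log2 -7.06, adjusted p = 7.4e-04) and Os08g0473600 (-2.57, adjusted p = 0.018) and OLE16 (-2.96, adjusted p = 0.0021). AMY1A made up most of these sums on N6 and in the line. The oleosin genes OLE16 and OLE18, both also among the LEA and oil body genes, are among the markers. The 3 endosperm markers summed to 56.1 to 75.2 CPM on N6 and 45.5 to 50.2 CPM at 7 d in the wild type. They did not move together there. WX1, the granule-bound starch synthase gene, was at 0 on N6 and at 0.538 ± 0.85 CPM at 7 d. SBE3 was not called (41.1 ± 4.32 and 45.4 ± 1.10 CPM), while RPBF fell from 22.1 ± 6.31 to 1.92 ± 0.69 CPM (log2 -3.53, adjusted p = 7.9e-08). In the line the 3 endosperm markers summed to 86.2 to 94.6 CPM on N6, 104 to 234 CPM at 5 d and 289 to 347 CPM at 7 d. SBE3 made up most of the sum at 7 d, with 247.7 ± 28.4 CPM. HAP3K, the member known from the endosperm, was lower in the line at 7 d than at any other time in that genotype, and the endosperm sum was highest there. The 3 leaf markers summed to 16.3 to 32.5 CPM in wild-type N6 libraries and 111 to 153 CPM in those of the line. At 7 d they summed to 0.1455 to 0.8385 CPM and 5.72 to 16.9 CPM. The 2 root markers summed to 348 to 452 CPM in the wild type at 2 d on CIM, where HAP3K was lowest in that genotype. At 7 d they summed to 37.8 to 50.8 CPM. The peak was that of RCc3, at 363.6 ± 49.1 CPM at 2 d and 12.3 ± 5.11 CPM at 7 d. The other marker, Os01g0854500, had 36.3 ± 4.1 CPM at 2 d and 37.5 ± 7.73 CPM at 5 d. It was not called at 2 d against N6 (adjusted p = 0.45 in edgeR). The part of tissue makeup in the members' changes was not tested.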

How the data were processed

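The authors deposited whole-number gene counts and FPKM values for 24 libraries. Per the labels, reads were trimmed with Trimmomatic 0.36, mapped on IRGSP-1.0 by HISAT2 2.1.0, and StringTie 1.3.4d quantified the genes. The study's methods also name UMI-tools, and whether it was applied to these counts is not known. Strand use in counting is not given in the sources used here. In the deposited FPKM columns, 0 is written as 0.0001.

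Counts were fitted with edgeR 4.0.16 (TMM factors 0.769 to 1.232, filterByExpr, quasi-likelihood F-test, 8 group means, 16 residual degrees of freedom, 17 contrasts) in R 4.3.3. p-values were adjusted by Benjamini-Hochberg over 29710 genes, and called genes had an adjusted p below 0.05 with log2 fold changes beyond 1 in size. The SE is the absolute log2 fold change divided by the root of F. The fit was tested on simulated data. CPM uses TMM-scaled totals, and correlations use log2 CPM with a prior count of 2. Alternatives were RLE factors, library totals, DESeq2 1.42.0, limma 3.58.1 on log2(FPKM + 0.1) and log2(FPKM + 1), no filter, counts divided by 4, only the groups compared, the replicate block and each library left out.

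Named genes were the members, the miR393 targets, the flowering genes (1 is not reported here), up to 4 called genes with the smallest p in wild type at 7 d of each other list, the 4 genes most like each member and the neighbours of OsLEC1 and HAP3K, with tissue markers beside them. HAP3A, HAP3B, HAP3C, OsHAP3D, OsHAP3F, OsLFL2, OsVAL2 and IDEF1 were added after their values were seen. The members and lists were chosen with earlier results of these data known. List entries whose names matched by chance, such as VPE and carotenoid dioxygenase genes, were removed after gene names and highest counts had been seen and before any test. No sequences were analysed here.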

Additional observations from a re-analysis of the deposited data

Results flagged for a closer look

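The change from N6 to CIM differed between wild type and the 35Spro:OsMIR393b line, by the interaction term of the edgeR fit, for HAP3K at 5 d (log2 4.49, adjusted p = 9.0e-05) and 7 d (7.09, adjusted p = 7.3e-07). It did so for OsVP1 at 5 d (2.56, adjusted p = 3.1e-04) and 7 d (4.99, adjusted p = 3.0e-07). For OsLFL1 it differed at 7 d (6.21, adjusted p = 0.0035), a value that was 1.10 (adjusted p = 0.88) without N6 replicate 1 of the line, the only library of its group with counts. Without that library the group is at 0, so the size of the difference cannot be estimated. For OsLEC1 the term could not be estimated. HAP3K and OsVP1 moved in opposite directions in the 2 genotypes at 7 d, with a called rise in the wild type and a called fall in the line.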

How the results depend on the processing

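The 4 members gave 67 results with 2148 values under alternatives, of which 2090 kept their direction and their side of the threshold. Of 564 values from settings other than leaving out a library, 538 did so, and of 1584 from leaving out a library, 1552. DESeq2 gave no adjusted p for 7 values. The cause of a changed call was not tested. With limma on log2(FPKM + 1), which understates low genes, calls were lost for OsLEC1 in the line at 5 d against N6 and against 2 d (0.79 both) and at 7 d against 5 d (-0.75), for OsLFL1 in the line at 5 d against N6 (0.94), 5 d against 2 d (0.65) and 7 d against 5 d (-0.94), and for HAP3K in the line at 7 d against 5 d (-0.71). With only the groups compared, which leaves fewer samples in the fit, calls were lost for OsLFL1 in the line at 5 d against N6 (4.82, adjusted p = 0.072), 5 d against 2 d (2.08) and 7 d against 5 d (-4.77), HAP3K (-1.96) and OsVP1 (-2.01) in the line at 7 d against 5 d. DESeq2 called OsLFL1 in the line at 2 d (2.76) and between genotypes on N6 (-2.47), and lost OsLEC1 between genotypes at 5 d (-3.56). limma on FPKM called the genotype difference in change of OsLFL1 at 5 d (2.78 with 0.1 added, 2.84 with 1 added), and with 0.1 added OsVP1 in the line at 5 d against N6 (-1.10) and against 2 d (-1.03). OsLFL1 in the line at 7 d against N6, at 0.06 with TMM factors, changed sign with library totals (-0.20) and limma (-0.04 and -0.01), and OsVP1 between genotypes at 2 d did so with library totals and limma (-0.02 each). The replicate numbers do not pair the libraries (mean r of deviations -0.008 for equal numbers and 0.004 for others, 7 of 24 libraries closest to their own number). The replicate block lost 1 call of the members, OsLFL1 in the line at 5 d against 2 d (2.01, adjusted p = 0.07), and changed no other.

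Leaving out a library moved OsLFL1 in the line from 2.14 to 7.84 at 2 d against N6, from -5.11 to 5.16 at 7 d against N6, from 1.15 to 2.54 at 5 d against 2 d, and between genotypes from -7.52 to -1.82 on N6 and from -0.41 to 0.13 at 2 d. Its genotype difference in change ranged from -4.08 to 1.96 at 5 d and from 1.10 to 11.38 at 7 d. The -4.08 and 1.10 came without N6 replicate 1 of the line, and the 11.38 without its CIM 7 d replicate 3. Each of these left a group of the line at 0. OsVP1 ranged in the line from -0.30 to 0.13 at 2 d and from -1.41 to -0.52 at 5 d against N6, from -1.32 to -0.42 at 5 d against 2 d, and between genotypes from -0.04 to 0.12 at 2 d. In the line at 7 d against 5 d, OsLEC1 ranged from -5.33 to -2.67 and HAP3K from -2.36 to -1.63.

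Of the lists at 7 d, counts that moved by over 1.5 times under some setting included storage genes called lower in the wild type (31, range 13 to 33) and the line (14, range 6 to 28), B3 genes called higher in the line (5, range 1 to 5) and in the genotype difference (8, range 6 to 19), NF-YB genes in the genotype difference (2, range 1 to 4) and LEA and oil body genes called lower in the wild type (3, range 1 to 5). Levels of OsLEC1 and OsLFL1 at or under 12 counts a library are at the limit of this depth. Promoter motifs and CPM per transcript length were not run, since they need sequence and transcript models.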
